A study of Mus musculus with 6 samples.

Results

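Ribosome biogenesis factors are the proteins that cut, modify and fold the precursor ribosomal RNA in the nucleolus and help ribosomal proteins onto it. Small nucleolar ribonucleoproteins (snoRNPs) carry guide RNAs that place methyl groups and pseudouridines on that RNA, the small subunit processome assembles on its leading part, and a separate set of factors builds the large subunit. Genes for these factors are known targets of MYC in growing cells. Here the genes were a given list of 60 nucleolar and ribosome assembly genes, of which 57 had a probe set that the platform's annotation pairs with that gene alone, among 19847 genes tested. Ppan and Phb have only probe sets that carry several symbols, and Noc2l was not matched to a probe set, so these 3 are not analysed here. Cirh1a was matched under its current symbol, Utp4. The list was sorted by known role into 9 snoRNP factors, 21 small subunit factors, 20 large subunit factors (18 measured) and 10 other nucleolar or growth-linked genes (9 measured).

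Transcripts were measured in mouse leukemia cells of a line labelled MLL-AF10, after the fusion oncogene of that name, grown with serum and WEHI-conditioned medium. Total RNA was read on 6 whole-transcript arrays, 3 for cells treated with an IKK inhibitor at 0.5 µM and 3 for cells treated with vehicle, and both groups are of that line. IKK kinases release NF-kB transcription factors from their IkB inhibitors. The sources used here do not give the compound's name, the treatment time, whether the line is a single clone or whether the 3 samples of a group were separate cultures, so the p-values reflect the spread among these samples alone, and that spread may be technical. Values are deposited intensities on a linear scale, and fold changes are inhibitor minus vehicle on the log2 scale with values below 16 set to 16. A gene was called at a Benjamini-Hochberg adjusted p under 0.05 over all genes by limma, a linear model fitted to all genes at once.

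Array medians lay between 112 and 124 and correlations of log2 values between arrays of a group were 0.993 to 0.997. Of the granule genes of myeloid progenitors, Elane averaged 4135 with the inhibitor and 4890.5 with vehicle. Mpo averaged 124 with the inhibitor, near the array medians, and 762 with vehicle. Ctsg was nearly level, at 4896 with the inhibitor and 4918 with vehicle, and was not called. The number of arrays limits the precision, and in RNA from bulk cells a smaller share of cells that carry a transcript and less of it in each cell cannot be told apart.

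Transcripts of the ribosome assembly machinery were lower as a broad set in cells given the IKK inhibitor. The list was chosen with earlier results of these data known, so its counts describe it and were not tested. Of the 57 genes 38 (66.7%) were called lower and 0 higher by limma, where 6.75% of all genes tested were called lower and 7.10% higher. At an unadjusted limma p under 0.05, 46 were lower and 0 higher, beside 2749 lower and 2645 higher of all 19847 genes. The shift was small for each gene, with a median log2 fold change of -0.27, or 17.2% lower, beside 0.01 for all genes, and a range from -0.63 for Gar1 to 0.04 for Npm1. The fold change was below 0 for 54 of the 57 genes, and for 48.1% of all genes, the other three being Ncl, Npm1 and Utp18.

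In 49 of the 57 genes all 3 inhibitor arrays lay below all 3 vehicle arrays, an arrangement found in 17.2% of all genes, and in none did they lie above. The median over the 57 genes, taken relative to each gene's vehicle mean, was -0.26, -0.25 and -0.29 on the log2 scale on the 3 inhibitor arrays and -0.02, 0.02 and 0.00 on the 3 vehicle arrays. Each inhibitor array was low, and the groups did not overlap. The listed genes are bright on the array, and bright genes were called more often. Among the 8335 genes at least as bright as the dimmest of them (mean intensity 236, Nle1), 13.2% were called lower, and 2664 of the 8335 had inhibitor arrays all below vehicle arrays. A fit of the genes above the median intensity alone called 22.2% of them lower, and 46 of the 57.

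**Figure D1:**
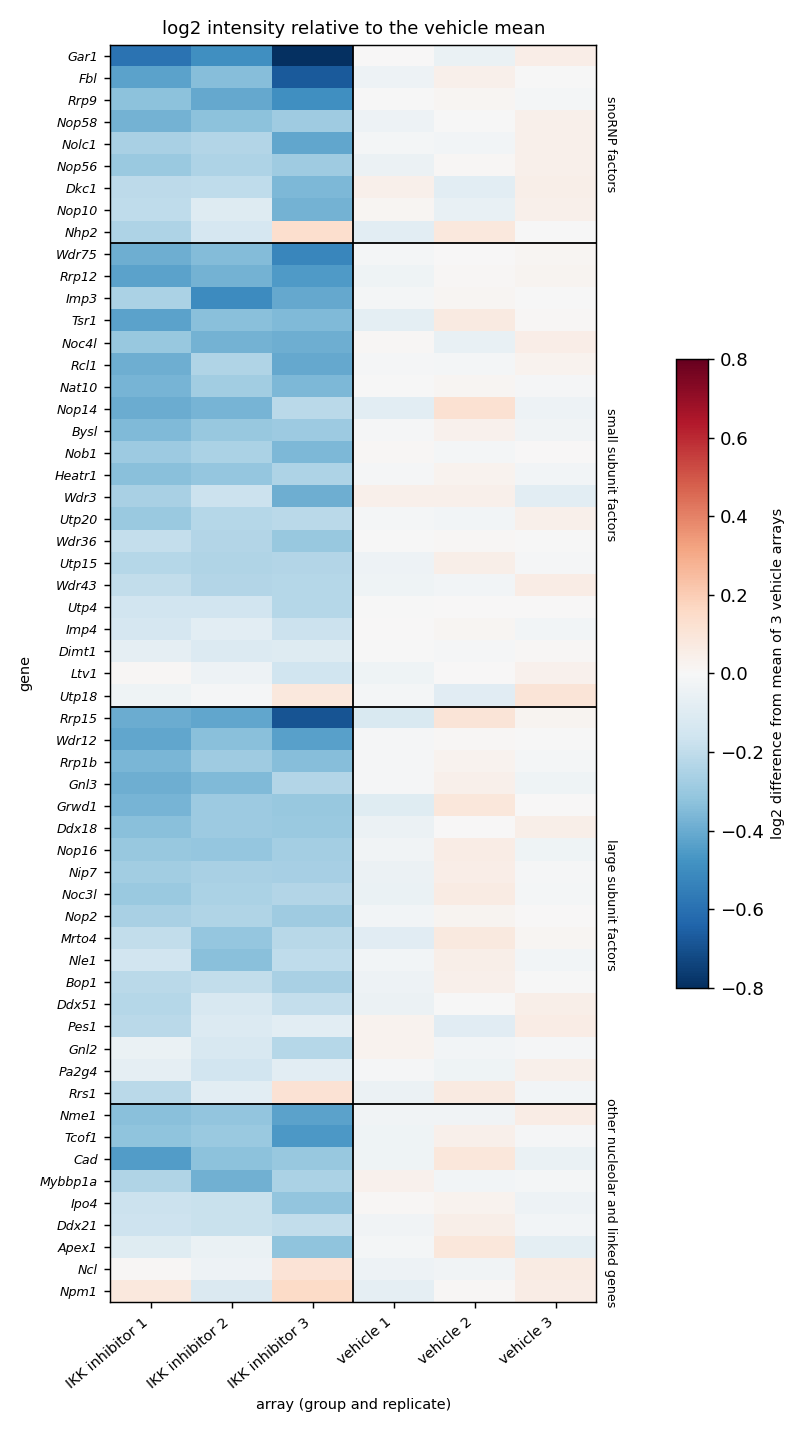
Log2 intensity of the 57 ribosome biogenesis genes (rows, grouped by role) on the 6 arrays (columns), as the difference from the mean of the 3 vehicle arrays, with blue lower and red higher. The columns of IKK inhibitor arrays are blue for nearly every gene, with pale or mixed rows such as Nhp2, Ltv1, Utp18, Rrs1, Ncl and Npm1.

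**Figure D2:**
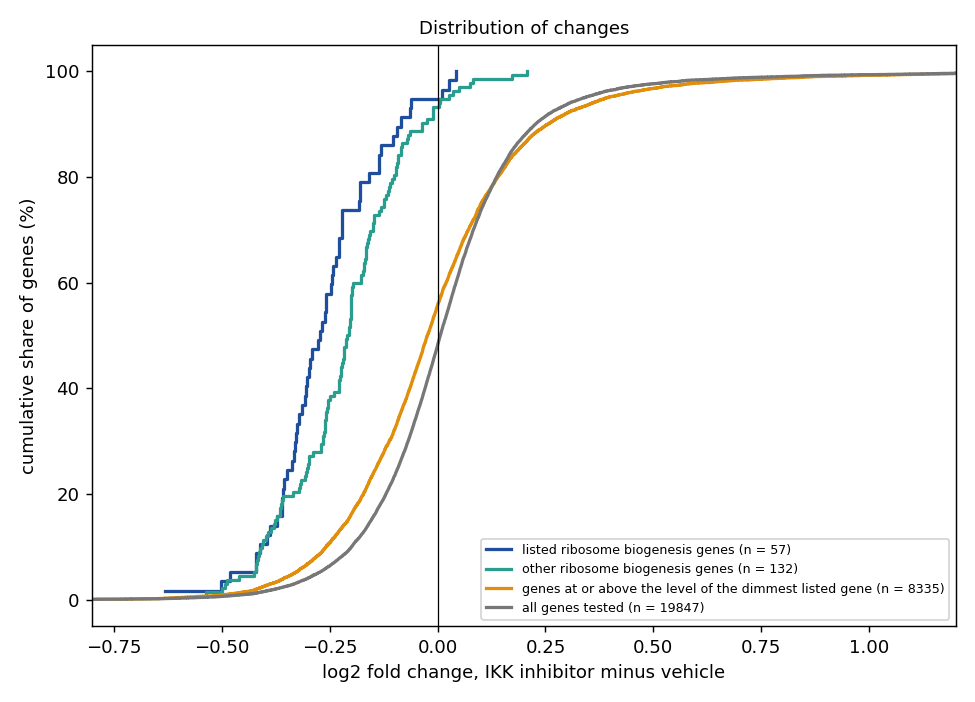
Cumulative share of genes (vertical axis, percent) by log2 fold change, IKK inhibitor minus vehicle (horizontal axis), for the 57 listed genes, 132 other ribosome biogenesis genes, the 8335 genes at least as bright as the dimmest listed gene, and all 19847 genes tested. Over most of their length both ribosome biogenesis curves lie to the left of the others, with medians of -0.27 and -0.21.

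The number of calls depended on the arrays kept, while the median moved little. Below, a value in parentheses beside a left-out array is limma's adjusted p without that array. Without inhibitor array 1, 2 or 3 the count of genes called lower was 18, 36 or 30, and without vehicle array 1, 2 or 3 it was 28, 14 or 17, with medians between -0.29 and -0.27. None was called higher in any of these 6 settings. The 13 genes called lower whichever array was left out were Gar1, Rrp9 and Nop58 among snoRNP factors; Wdr75, Rrp12, Tsr1, Noc4l, Nat10 and Bysl among small subunit factors; Wdr12, Rrp1b and Ddx18 among large subunit factors; and Nme1. These 13 were also the genes with an adjusted p under 0.01 over all arrays. Calls over all genes tested fell in these settings too, from 1340 lower with all arrays. They numbered 446, 1310 or 765 without inhibitor array 1, 2 or 3, and 679, 396 or 424 without vehicle array 1, 2 or 3. Whether the listed genes lost calls more readily than all genes was not tested.

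Promoters were examined because most of the genes moved the same way, and 5 of them are shown so that a reader can see the motifs beside the changes. RefSeq windows of 300 bases (250 before and 50 after the transcript start, build GRCm38.p6) were matched by symbol for 49 of the 57 genes, 53 windows in all. The E-box CACGTG, a sequence bound by MYC with MAX and by several other factors and its own reverse complement, was present in 16 of the 53 windows (30.2%), in 8.26% of the 19128 windows of all genes tested and in 10.7% of the 8693 windows of the genes at least as bright. The motif CCGGAAG, searched on both strands and of the kind that ETS factors bind, was present in 28.3% of the 53 windows, against 12.1% and 20.0% in those 2 wider sets as the background. Neither motif contains the other. By role, the E-box was in 0 of 8 snoRNP windows, 7 of 19 small subunit windows, 4 of 18 large subunit windows and 5 of 8 windows of the other genes. It was in 9 of the 37 windows of genes called lower and 7 of the 16 windows of genes not called. CCGGAAG was in 10 of those 37 windows and 5 of those 16. A match is a string of letters in the window and says nothing of binding. Capitals below mark CACGTG and CCGGAAG or its reverse complement. Tsr1 and Nop2 were called lower and hold both motifs. Both motifs are also held by Grwd1 and Ipo4, called lower, and by Utp4, Utp18 and Ltv1, not called. Apex1 was not called and holds 3 E-boxes, and Gar1 had the largest fall and holds no E-box. Noc4l is shown for the window it shares with Ddx51.
Tsr1 (chr11:74897830-74898129, plus strand): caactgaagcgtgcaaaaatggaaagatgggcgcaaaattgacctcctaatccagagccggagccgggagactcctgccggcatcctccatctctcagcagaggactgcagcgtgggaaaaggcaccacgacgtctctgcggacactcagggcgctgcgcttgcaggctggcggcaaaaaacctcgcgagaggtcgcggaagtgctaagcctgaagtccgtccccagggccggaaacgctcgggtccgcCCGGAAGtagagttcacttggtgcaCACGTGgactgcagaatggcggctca
Nop2 (chr6:125131633-125131932, plus strand): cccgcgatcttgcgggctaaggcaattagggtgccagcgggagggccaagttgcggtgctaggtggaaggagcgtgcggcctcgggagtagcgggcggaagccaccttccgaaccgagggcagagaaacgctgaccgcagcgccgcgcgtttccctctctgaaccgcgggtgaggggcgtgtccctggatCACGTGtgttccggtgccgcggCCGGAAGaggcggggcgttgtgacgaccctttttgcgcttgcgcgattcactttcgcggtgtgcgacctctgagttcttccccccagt
Apex1 (chr14:50924699-50924998, plus strand): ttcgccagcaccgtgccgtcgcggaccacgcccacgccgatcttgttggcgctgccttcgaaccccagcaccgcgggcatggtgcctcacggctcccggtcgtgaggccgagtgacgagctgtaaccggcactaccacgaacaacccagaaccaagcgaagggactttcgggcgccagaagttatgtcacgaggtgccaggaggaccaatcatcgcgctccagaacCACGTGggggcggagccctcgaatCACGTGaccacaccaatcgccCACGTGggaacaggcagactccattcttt
Gar1 (chr3:129831347-129831646, minus strand): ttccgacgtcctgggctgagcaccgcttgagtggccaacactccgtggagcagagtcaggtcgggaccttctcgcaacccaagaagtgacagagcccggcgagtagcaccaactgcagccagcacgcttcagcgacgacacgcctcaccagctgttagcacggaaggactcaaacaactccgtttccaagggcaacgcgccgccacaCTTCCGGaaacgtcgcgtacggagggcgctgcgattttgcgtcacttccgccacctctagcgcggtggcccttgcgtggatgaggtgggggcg
Noc4l (chr5:110653333-110653632, minus strand): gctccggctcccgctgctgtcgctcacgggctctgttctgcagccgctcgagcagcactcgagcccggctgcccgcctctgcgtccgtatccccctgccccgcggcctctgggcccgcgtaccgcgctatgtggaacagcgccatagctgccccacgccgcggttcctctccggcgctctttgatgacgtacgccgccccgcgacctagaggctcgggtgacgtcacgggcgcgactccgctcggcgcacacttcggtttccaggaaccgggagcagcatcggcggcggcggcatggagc
In Apex1 the E-boxes begin at positions -24, 1 and 22 from the transcript start, and in Nop2 the E-box begins at -60 and the ETS-type motif at -38. Noc4l and Ddx51 are transcribed away from each other with starts 69 bases apart, so that their windows share 168 bases. Noc4l, a small subunit factor, was called lower with a log2 fold change of -0.36, and Ddx51, a large subunit helicase gene, had -0.18 and was not called (adjusted p = 0.0669), with inhibitor arrays below vehicle arrays in both. The difference between the 2 genes was not tested.

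Among snoRNP factors, 7 of 9 measured genes were called lower and 0 higher, beside 6.75% and 7.10% of all genes. The log2 fold change was below 0 in all 9, with a median of -0.30. Gar1, a core protein of the snoRNPs that make pseudouridine, fell most of all 57 genes. Its intensity was 562, 601 and 482 on the 3 inhibitor arrays and 848, 816 and 876 on the 3 vehicle arrays. The highest inhibitor array lay below the lowest vehicle array, and the log2 fold change was -0.63 ± 0.09 (SE, limma adjusted p = 0.0056), or 35.5% lower. The other genes of the same particle had smaller changes. Dkc1, the pseudouridine synthase itself, was 1569, 1576 and 1416 with the inhibitor and 1869.5, 1711 and 1874 with vehicle, a log2 fold change of -0.26 with an adjusted p of 0.0476 that was lost without any 1 of the 6 arrays (0.0533 to 0.154). Nop10 was 2003, 2149 and 1774 with the inhibitor and 2333, 2215 and 2371 with vehicle and was not called, although its groups did not overlap. Nhp2 was not called either, with 1264, 1366 and 1648 with the inhibitor and 1419, 1591 and 1501 with vehicle, and here inhibitor array 3 was the highest of all 6 arrays. The log2 fold changes of Gar1 and Nhp2 had 95% intervals of -0.84 to -0.42 and -0.33 to 0.16; a difference between the 2 genes was not tested.

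All 3 listed genes for proteins of the methylation guide snoRNPs were called lower. Snu13, another snoRNP gene but outside the list, had a log2 fold change of -0.13 and was not called (limma adjusted p = 0.0975). Fbl, the methyltransferase fibrillarin, was 1909.8, 2028 and 1617 with the inhibitor and 2506, 2648 and 2569 with vehicle, a log2 fold change of -0.48 ± 0.09 (adjusted p = 0.0154). Inhibitor array 3 was the lowest, and no inhibitor array reached a vehicle array. A dimmer probe set of Fbl gave -0.13 and was not called (adjusted p = 0.188 with it taken for the gene), and the call of the brighter one was lost without vehicle array 2 (0.0674) or 3 (0.058). Nop58, a scaffold protein of the particle, was 855, 885 and 912 with the inhibitor and 1081, 1112 and 1147 with vehicle, 20.6% lower. Its paralog Nop56 was 2561, 2649 and 2577 with the inhibitor and 3037, 3156 and 3237 with vehicle, 17.4% lower, with the arrays of each group close together. Rrp9, a protein of the snoRNP that directs the early cleavages of the precursor, was 419, 396 and 376 with the inhibitor and 526, 533 and 522 with vehicle. That is a log2 fold change of -0.41 ± 0.06, and the 3 vehicle arrays lay close together. Nolc1, a phosphoprotein that gathers snoRNPs in the nucleolus, was 1704, 1732 and 1531 with the inhibitor and 2019, 2009.6 and 2097 with vehicle, a log2 fold change of -0.30 (adjusted p = 0.0225). Nop56 was not called without inhibitor array 1 (0.0632), vehicle array 2 (0.0628) or vehicle array 3 (0.0656), nor Nolc1 without inhibitor array 1 (0.0628) or vehicle arrays 1, 2 and 3 (0.0638, 0.0752 and 0.0896). In all, 4, 7 or 6 snoRNP factors were called lower without inhibitor array 1, 2 or 3, and 5, 3 or 3 without vehicle array 1, 2 or 3.

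**Figure D3:**
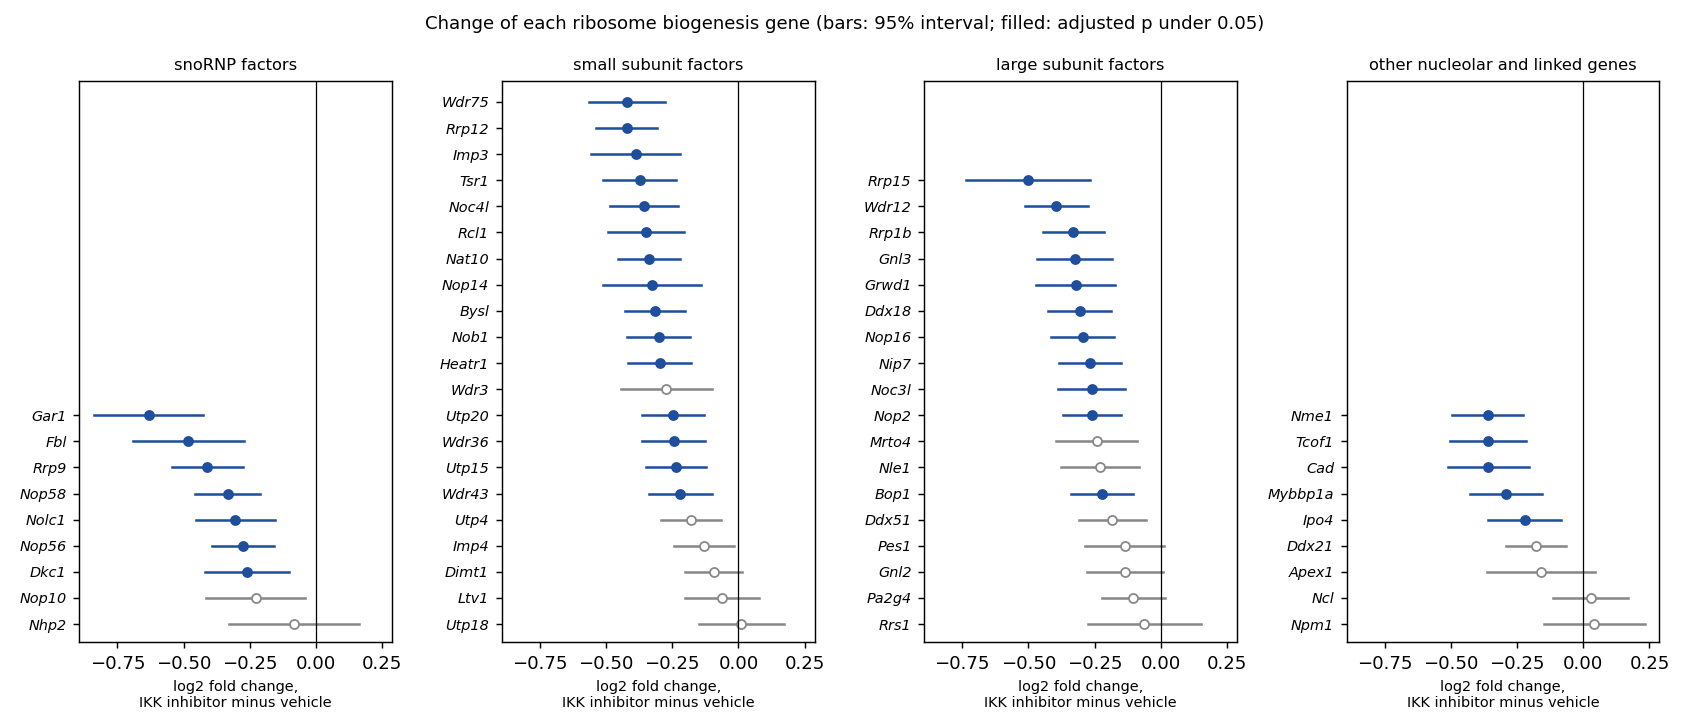
Log2 fold change of each gene, IKK inhibitor minus vehicle (horizontal axis), with its 95% interval as a bar, in 4 panels by role; filled blue points are called at an adjusted p under 0.05 and open grey points are not. Points run from -0.63 for Gar1 to 0.04 for Npm1, and each panel has called genes on the left and genes near 0 at its foot.

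Of 21 small subunit factors 15 were called lower and 0 higher, beside 6.75% and 7.10% of all genes. The log2 fold change was below 0 in 20 of the 21, with a median of -0.30. The subcomplex that binds first to the precursor, also linked to its transcription, is represented by Wdr75, Heatr1, Utp15, Wdr43 and Utp4. Wdr75 was 1010.0, 1044 and 922 with the inhibitor and 1314, 1327 and 1338 with vehicle. The 3 vehicle arrays were nearly equal, all inhibitor arrays were lower, and the log2 fold change was -0.42 ± 0.06 (adjusted p = 0.00627). Heatr1 had a log2 fold change of -0.30, Utp15 of -0.24 and Wdr43 of -0.22, all called lower. Utp4 missed the threshold at -0.18 (adjusted p = 0.0521), with 1904, 1899 and 1803 with the inhibitor and 2113, 2117 and 2116 with vehicle. In the subcomplex that joins next, Wdr36 was called lower (-0.24), Wdr3 was not (-0.27, adjusted p = 0.0527), and Utp18 had 0.01. Wdr3 was 578, 614 and 528 with the inhibitor and 711, 710.3 and 652 with vehicle, with no overlap. Utp18 was 676, 688 and 735 with the inhibitor and 687, 652 and 745 with vehicle, so the groups overlapped over nearly their whole range. Its sign turned with the scaling of the arrays, and no direction is given for it.

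Of the other 8 genes for early small subunit factors, 6 were called lower and Imp4 and Dimt1 were not. Imp3 was 873, 734 and 785 with the inhibitor and 1031, 1051 and 1039 with vehicle, 23.6% lower (adjusted p = 0.0153), with the 3 inhibitor arrays more spread than the 3 vehicle arrays. Its partner Imp4 was 2188, 2260.3 and 2134 with the inhibitor and 2409, 2428 and 2365 with vehicle, had a log2 fold change of -0.13 and was not called (adjusted p = 0.135), although its groups did not overlap. Noc4l and Nop14, whose yeast counterparts form a complex, had log2 fold changes of -0.36 and -0.33, and Noc4l was 943, 895 and 887 with the inhibitor and 1170.4, 1114 and 1205 with vehicle. Rcl1, whose yeast counterpart takes part in cleaving the precursor, had -0.35, the scaffold gene Utp20 -0.25 and the rRNA acetyltransferase gene Nat10 -0.34. Nat10 was 673, 716 and 677 with the inhibitor and 867, 881 and 863 with vehicle, with tight groups set apart from each other. Dimt1, a methyltransferase of the small subunit rRNA, was 959, 932 and 938 with the inhibitor and 1005, 999 and 1015 with vehicle, a log2 fold change of -0.09 (adjusted p = 0.24).

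Late small subunit factors act on precursors that leave the nucleolus. Rrp12, which helps in their maturation and export, was 353, 366 and 347 with the inhibitor and 465, 479.9 and 483 with vehicle. With a log2 fold change of -0.42 ± 0.05 it had the smallest adjusted p of the 57 genes (0.00287). Tsr1, a GTPase-like factor of late precursors, was 661, 703 and 694 with the inhibitor and 841, 932 and 895 with vehicle, 22.8% lower. Bysl was 19.6% lower and Nob1, the nuclease that makes the mature end of the small subunit rRNA, 18.9% lower. Ltv1, another late factor, had 796, 769 and 709 with the inhibitor and 773, 791 and 809 with vehicle, overlapping groups and no call (log2 fold change -0.06, adjusted p = 0.581). Without inhibitor array 1, 2 or 3, 8, 14 or 11 small subunit factors were called lower, and without vehicle array 1, 2 or 3, 10, 7 or 7. Wdr43 was called in none of these settings (0.0604 to 0.119). Wdr36 (0.0533 to 0.0874) and Utp15 (0.0507 to 0.0874) were called without inhibitor array 2 and in no other of them, and Nop14 (0.0572 to 0.123) without inhibitor array 3 and in no other. Nob1 was not called without vehicle array 3 (0.0515), Heatr1 without inhibitor array 1 (0.0539) or vehicle array 2 (0.0558), and Imp3 without inhibitor array 3 (0.0532), vehicle array 2 (0.0653) or vehicle array 3 (0.0589). Rcl1 was not called without inhibitor array 1 (0.0568), vehicle array 2 (0.0522) or vehicle array 3 (0.0579), nor Utp20 without inhibitor array 1 (0.0846) or vehicle arrays 1, 2 and 3 (0.0609, 0.0693 and 0.0891).

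Large subunit factors were called lower in 11 of 18 measured genes and higher in 0, beside 6.75% and 7.10% of all genes. The log2 fold change was below 0 in all 18, with a median of -0.26. Rrp15, a nucleolar protein of early large subunit precursors, was 293, 289.8 and 239 with the inhibitor and 355, 415 and 391 with vehicle. Inhibitor array 3 was the lowest, and the log2 fold change was -0.50 ± 0.10 (adjusted p = 0.0194), a call lost without vehicle array 2 (0.0778) or 3 (0.0711). The complex of Wdr12, Bop1 and Pes1, needed for processing of the large subunit rRNA, is encoded by 2 genes that were called lower and 1 that was not. Wdr12 was 876, 929 and 864 with the inhibitor and 1161, 1179 and 1168 with vehicle, 23.9% lower (adjusted p = 0.00421), and a second, dimmer probe set gave -0.25, also called. Bop1 had a log2 fold change of -0.22 (adjusted p = 0.0292). Leaving out inhibitor array 2 kept that call, and leaving out any of the other 5 arrays ended it (0.0604 to 0.114). Pes1 was 863, 927 and 944 with the inhibitor and 1021, 941 and 1043 with vehicle, so 1 vehicle array lay within the inhibitor range, and it was not called (-0.14, 95% interval -0.29 to 0.01). Whether the 3 genes differ from each other was not tested.

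Rrp1b was 20.4% lower, Gnl3 20.2% and Grwd1 20.0%. Rrp1b, a nucleolar protein of large subunit maturation, was 585, 620.0 and 597 with the inhibitor and 749, 769.9 and 746 with vehicle. Gnl3 encodes nucleostemin, a nucleolar GTPase of dividing progenitor cells, and was 846, 865 and 942 with the inhibitor and 1099, 1140.1 and 1083 with vehicle. In both the groups were well apart. Grwd1, a chaperone of a large subunit protein, was 285, 302 and 299 with the inhibitor and 346, 394 and 369.7 with vehicle. The helicase gene Ddx18 had a log2 fold change of -0.31, with a second probe set at -0.27, Nop16 had -0.30, Nip7 -0.27, Noc3l -0.26 and the rRNA methyltransferase gene Nop2 -0.26, all called lower. Gnl2, a GTPase related to Gnl3, was 1216, 1153 and 1074 with the inhibitor and 1284, 1240.5 and 1252 with vehicle and was not called (-0.14, adjusted p = 0.205). Mrto4 (-0.24, adjusted p = 0.0501) and Nle1 (-0.23, adjusted p = 0.0554) lay just outside the threshold. Mrto4 was 688, 635 and 675 with the inhibitor and 738, 831 and 797 with vehicle, and neither gene's groups overlapped. Rrs1, whose yeast counterpart helps bring the smallest ribosomal RNA into the large subunit, had 404, 441 and 507 with the inhibitor and 453, 494 and 461 with vehicle, with inhibitor array 3 above every vehicle array, and Pa2g4, a growth-regulated nucleolar protein, had -0.10; neither was called. The large subunit count was 4, 11 or 9 without inhibitor array 1, 2 or 3 and 10, 3 or 4 without vehicle array 1, 2 or 3. Without inhibitor array 1, vehicle array 2 or vehicle array 3 the calls of Gnl3 (0.0627, 0.0675 and 0.0513), Nip7 (0.0668, 0.0683 and 0.0633), Noc3l (0.0879, 0.084 and 0.0755) and Nop2 (0.0576, 0.0633 and 0.062) were lost. Grwd1 lost its call in the same 3 settings (0.0775, 0.0701 and 0.0726) and without inhibitor array 3 (0.0533), and Nop16 without inhibitor array 1 (0.0537) or vehicle array 2 (0.0531).

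**Figure D4:**
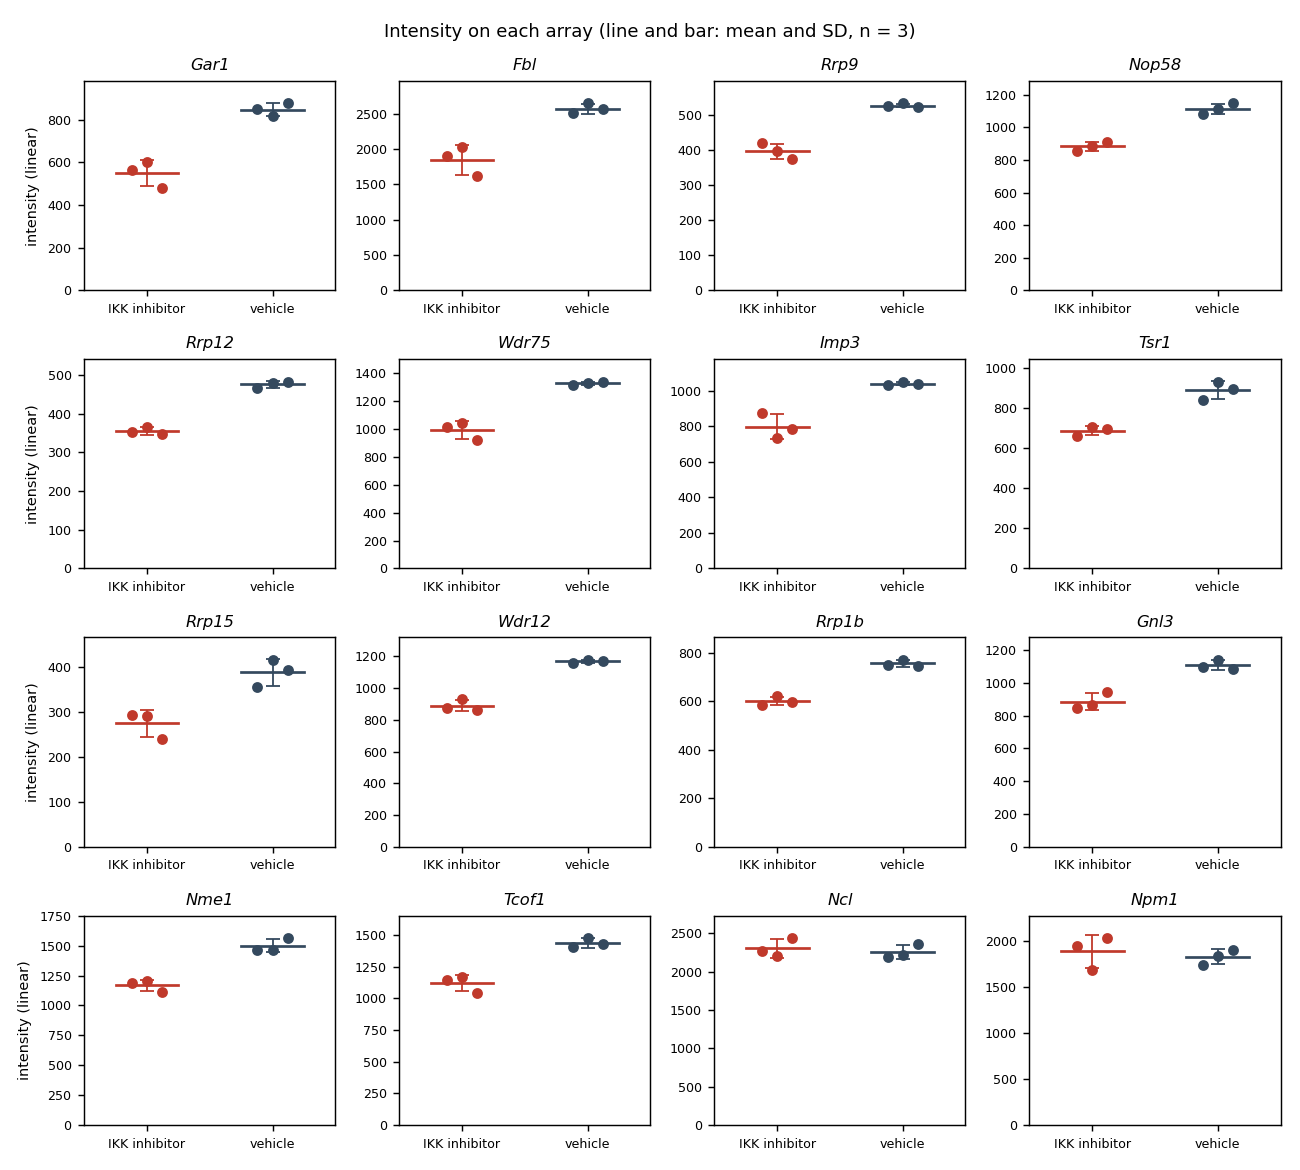
Intensity on a linear scale (vertical axes, from 0) on each of the 3 IKK inhibitor arrays (red, left) and 3 vehicle arrays (dark, right) for 16 genes, with the mean as a line and the SD as a bar. In the first 14 panels all inhibitor points lie below all vehicle points, while those of Ncl and Npm1 overlap.

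Among the 9 other nucleolar and growth-linked genes 5 were called lower and 0 higher, beside 6.75% and 7.10% of all genes. The log2 fold change was below 0 in 7 of the 9, with a median of -0.22. Tcof1 encodes treacle, which supports transcription of ribosomal RNA genes, and was 1146, 1168 and 1045 with the inhibitor and 1404, 1475 and 1427 with vehicle, 22.0% lower. Nme1, a nucleoside diphosphate kinase, was 1187, 1205 and 1113 with the inhibitor and 1467, 1468 and 1564 with vehicle, 22.1% lower. Cad, the enzyme that starts pyrimidine synthesis, was 443, 480.4 and 489 with the inhibitor and 590.1, 641 and 580.2 with vehicle. In each of these 3 genes every inhibitor array lay below every vehicle array. Mybbp1a, a nucleolar binding partner of MYB, was 1273, 1151 and 1259.8 with the inhibitor and 1540.4, 1481 and 1484 with vehicle, a log2 fold change of -0.29. The importin gene Ipo4 was 498, 495 and 451 with the inhibitor and 564, 572 and 546 with vehicle, -0.22 on the log2 scale with an adjusted p of 0.0498, a call lost without any 1 of the 6 arrays (0.0576 to 0.162). The helicase gene Ddx21 (-0.18, adjusted p = 0.0513) and the DNA repair nuclease gene Apex1 (-0.16, adjusted p = 0.297) were not called. Without inhibitor array 1, 2 or 3, 2, 4 or 4 of these genes were called lower, and without vehicle array 1, 2 or 3, 3, 1 or 3; Tcof1 was not called without vehicle array 2 (0.0547), Cad not without inhibitor array 1 (0.0563) or vehicle array 2 (0.0589), and Mybbp1a not without inhibitor array 1 (0.0518) or vehicle arrays 1, 2 and 3 (0.0686, 0.0695 and 0.069).

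The genes for nucleolin and nucleophosmin, abundant nucleolar proteins, did not pass the test. Ncl (nucleolin) was 2272, 2197 and 2437 with the inhibitor and 2196, 2217 and 2359.6 with vehicle. Npm1 (nucleophosmin) was 1942, 1689 and 2032 with the inhibitor and 1741, 1839.9 and 1906 with vehicle. In both the groups overlapped, and the means were 2302 ± 123 with the IKK inhibitor and 2258 ± 89.1 with vehicle (SD, n = 3 each) for Ncl and 1888 ± 178 with the IKK inhibitor and 1829 ± 83.2 with vehicle (SD, n = 3 each) for Npm1. Their 95% intervals of the log2 fold change were -0.12 to 0.17 and -0.15 to 0.23. Whether either gene differs from the rest of the 57 genes was not tested. The sign of Ncl turned when arrays were centred on their medians (-0.0064) and that of Npm1 without inhibitor array 3 (-0.013), so no direction is given for either.

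Several of these genes hold snoRNA genes within their span, 19 in 7 of the 57 genes, of which 4 had a probe set of their own. Snord53, inside Wdr43, fell by 0.65 on the log2 scale (intensity 119.8 ± 10.05 with the inhibitor and 187 ± 10.7 with vehicle, SD, n = 3 each, adjusted p = 0.00327), where Wdr43 itself had -0.22. Snord57, inside Nop56, had -0.15 (adjusted p = 0.25), and Snord82 and Snora75, inside Ncl, had -0.13 and -0.07; these 3 were not called. Signal from a snoRNA and from the unspliced RNA of its host cannot be told apart by such a probe set.

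Ribosome biogenesis genes outside the list mostly showed the same direction. They too were chosen with earlier results of these data known. Of 132 others measured, taken from 5 lists of pathway genes, 56 (42.4%) were called lower and 1 higher, beside 6.75% and 7.10% of all genes, with a median log2 fold change of -0.21. The share called lower was 13.2% for the 8335 genes at least as bright as the dimmest listed gene (mean intensity 236). The dimmest of the 132 had a mean intensity of 157. Among 11 snoRNP assembly factors 4 were called lower: Ruvbl1 (-0.49) and Ruvbl2 (-0.36), the paired ATPases of snoRNP assembly, Shq1 (-0.41), a chaperone of Dkc1, and Rpap3 (-0.26). Other small subunit factors were called lower in 16 of 40, with a median of -0.21, the largest falls being those of the processome genes Pwp2 (-0.42), Tbl3 (-0.42), Emg1 (-0.42) and Nol10 (-0.41). Utp23 was the single gene called higher (0.21, adjusted p = 0.0377), and no call was left when any 1 array was dropped. Other large subunit factors were called lower in 21 of 45, with a median of -0.21, and were led by Ftsj3 (-0.50), Wdr74 (-0.49), Lyar (-0.41) and Ddx56 (-0.40).

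Over all genes 6.75% were called lower. Nucleases that trim or cut the precursor were called lower in 9 of 21, with a median of -0.21. They included the ribonuclease P and MRP subunits Rpp40 (-0.54) and Pop1 (-0.40) and the exosome subunits Exosc2 (-0.38) and Exosc5 (-0.36). RNA polymerase I, which transcribes the ribosomal RNA precursor, and its initiation factors were called lower in 6 of 15, with a median of -0.20. These were Taf1a (-0.56), Polr1c (-0.46), Polr1b (-0.43), Polr1a (-0.37), Znrd1 (-0.30, a small subunit of the polymerase) and Rrn3 (-0.30). Over the 132 genes the count called lower was 22, 49 or 39 without inhibitor array 1, 2 or 3 and 33, 21 or 20 without vehicle array 1, 2 or 3. In these 6 settings 396 to 1310 of all genes were called lower.

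Markers of myeloid maturation moved in the same arrays. For comparison, 7.10% of all genes were called higher and 6.75% lower. Of 19 monocyte and macrophage markers 15 were called higher and 0 lower, with Gpnmb (log2 fold change 1.78), Csf1r (1.23) and Adgre1 (1.43) among those with the smallest p, and their summed intensity was 24802 to 26041 on inhibitor arrays and 14249 to 14726 on vehicle arrays. Of 10 granulocyte and monocyte progenitor genes 7 were called lower and 0 higher, Mpo most (-2.62), and their sum was 17564 to 18098 on inhibitor arrays and 20757 to 21440 on vehicle arrays. No gene of the 6 marker lists was at 0 on any array. Nor was any probe set, the lowest value being 0.71, so this does not show that a marker was expressed. Of 6 T cell, 5 B cell, 3 erythroid and 6 stromal markers limma called 0, and at an unadjusted p under 0.05 there was 1, the B cell gene Cd79a (-0.33); the sums of each list overlapped between the groups. The part of the myeloid markers' shift in the lower ribosome biogenesis transcripts was not tested.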

How the data were processed

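Total RNA of 6 samples was labelled by a whole-transcript sense-strand assay and hybridised to 6 Affymetrix arrays, per the labels' protocols. The deposited values are intensities per probe set on a linear scale. Per the submitters' processing notes, Affymetrix Expression Console made them; the sources used here do not give its version, algorithm or normalization. Scanner files were not used. Of 35512 probe sets, 21789 carry 1 gene symbol in the platform annotation, 1621 carry several and 12102 are not listed there. Symbols were updated through Entrez identifiers, and a gene on more than 1 probe set (999 genes) was represented by its brightest. Intensities below 16 (5.94% of values) were set to 16, and 91 genes at that floor on all arrays were left out; all 57 measured members of the list passed.

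Log2 values were fitted with limma 3.58.1 in R 4.3.3 over 19847 genes, with the group as the only term and Benjamini-Hochberg adjustment over all genes; the procedure was tested on simulated data. Lists are described by counts and medians beside those of all genes. Every gene of the list could be named; values on each array are given for the 5 largest called changes per role, for up to 3 of the largest and of the smallest changes not called, and for Nop56, Dkc1, Nat10 and Pes1, which were added after their values were seen, and of the other lists the 4 largest falls and the called rises, or up to 3 marker genes. The members, the 5 lists of other pathway genes and the 6 marker lists were chosen with earlier results of these data known. Sequences are from RefSeq (GRCm38.p6); protein sequences were not used here. The alternatives were other floors, a log of the intensity plus 16, 2 normalizations, 2 filters on dim genes, other choices of probe set, 2 variance models, the replicate number as a block, a threshold of 0.01, and leaving out each array in turn. Replicate numbers did not pair the arrays by the rule that every same-numbered pair correlates above 0.1.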

Additional observations from a re-analysis of the deposited data

How the results depend on the processing

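The median of the 57 genes stayed below -0.2 in all 20 alternatives, none of the 57 was called higher in any, and 53 were below 0 in every one. Calls were less stable. With any 1 array left out, genes called lower numbered 14 to 36 of 57 (median -0.29 to -0.27), snoRNP factors 3 to 7 (-0.33 to -0.27), small subunit factors 7 to 14 (-0.31 to -0.27), large subunit factors 3 to 11 (-0.29 to -0.23), other nucleolar genes 1 to 4 (-0.25 to -0.17), and the 132 other pathway genes 20 to 49 (-0.22 to -0.20), with 0 of the 132 higher in each of the 6 settings. Over all genes 396 to 1310 were called lower and 790 to 1535 higher. At an adjusted p under 0.01, 13 of the 57 were called lower: 3 snoRNP, 6 small subunit, 3 large subunit and 1 other nucleolar; of the other pathway genes 18 were lower and 0 higher, and of all genes 322 lower and 662 higher. Centring each array on its median gave medians of -0.31 for the 57 genes, -0.33 for small subunit, -0.29 for large subunit and -0.24 for other pathway genes, with 0 of the last called higher and 890 of all genes higher. Other pathway genes called higher numbered 2 with a floor of 64, above the 25th percentile, above the median, with an intensity trend and robust prior, and with array weights. Those called lower numbered 91 above the median and 91 with the trend and robust prior. All genes called lower then numbered 2207 above the median (9923 tested), 2220 with the trend and robust prior and 2202 with array weights, which also gave 2132 higher. With the replicate block, 29 of the 57 and 34 of the 132 were called lower and 0 of either higher, and 681 of all genes lower; the deviations of same-numbered arrays correlated at 0.24, 0.13 and -0.10, and inhibitor array 2 correlated best with vehicle array 3. Signs turned for 4 genes that were not called: Utp18 had -0.022 with centring, -0.011 with array weights and -0.034 to 0.063 with any 1 array left out; Ncl had -0.0064 with centring and -0.014 to 0.060 with any 1 array left out; Rrs1 had -0.15 to 0.013 and Npm1 -0.013 to 0.12 with any 1 array left out. The cause of these changes was not tested. With 3 arrays a group, changes of the size of Utp4 or Mrto4 lie at the limit of what was called.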
